A study of Mus musculus with 14 samples.

Results

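The kidney transcriptome at 24 h after an injection of MnDps was compared with that of vehicle-treated kidneys, over all genes. The comparison holds 5 of the 14 libraries of the study, chosen by their labels alone: 2 libraries of MnDps at 24 h and 3 of vehicle. Of 24421 genes in the count table, 14854 had enough counts to be tested and 9567 did not. The study injected male C57BL/6J mice with protein nanocages, which its title describes as reaching the proximal tubule through the glomerular filter. RNA of snap-frozen kidneys was sequenced as stranded mRNA libraries, with paired reads of 75 bases.

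MnDps at 24 h was given intravenously at 18 mg/kg (2 libraries). Dps at 24 h had the same dose, route and time (3 libraries), and MnDps at 4 h the same dose and route (3 libraries). The vehicle group (3 libraries) carries no time point, so the hour of kidney collection relative to the treated groups is not known. A group of Dps at 4 h (3 libraries) was not compared. It entered the choice of genes to test, the scaling, the principal components and the shared estimate of spread. In a fit of the MnDps 24 h and vehicle libraries alone, 14187 genes had enough counts to be tested. The labels spell out neither Dps nor MnDps, give no age and no endotoxin content, and do not say that each library is a separate mouse, so p-values here measure the spread between these libraries. With 2 libraries in the MnDps 24 h group, each of them carries much of every result.

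Proximal tubule cells take up filtered protein from the urine through the receptors megalin and cubilin and degrade it in lysosomes, and this tubule fills most of the kidney cortex. Interferons act through receptors that activate interferon regulatory factors, which bind the interferon-stimulated response element (ISRE) in the promoters of antiviral genes. Kidneys also hold resident macrophages and dendritic cells, which respond to foreign protein and to bacterial products.

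Library totals ran from 15097093 to 23591909 counts for MnDps at 24 h, and from 17589774 to 37135858 for vehicle. Levels are given as counts scaled to library size by TMM (CPM), and differences as log2 fold changes with their standard error. Where groups are said not to overlap, this is a description. It was a condition for naming the largest rises and falls, so it adds no evidence for them. The share of all genes without overlap is not given. For genes that were not called, a lack of overlap is therefore no evidence of a difference either. The tissue label was borne out by its markers: Kap, an androgen-dependent proximal tubule transcript, had 35266 and 40671 CPM after MnDps at 24 h, against 38630.0, 39047 and 36200.0 CPM in vehicle kidneys. Its log2 fold change was 0.00 (adjusted p = 0.999), and its sign turned under some other settings. Over all 14 libraries the leading principal component (41.7% of the variance) held the 24 h and vehicle libraries on one side and the 4 h libraries on the other. On the second component, with 20.6%, the MnDps 24 h libraries stood at 17.5 and 8.38, against -25.0, -8.98 and -28.6 for vehicle. In bulk RNA, fewer cells of a type and less RNA per cell cannot be told apart. Several genes named below overlap another gene or have near copies (Ifit1 and Ifit3b with Ifit1bl1, Ifi27 with Ifi27l2a, Dbp with Sphk2, C3 with Mir6978, Gt(ROSA)26Sor with Thumpd3, Klf9 with Mir1192, B2m with Patl2, Egf with 6330410L21Rik, Rab5a with Pp2d1, Cxcl10 with Art3, C4b and the H2 genes with their copies). The strand setting of the counting is not given, so their counts are uncertain to that extent.

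At 24 h after MnDps the kidney had more RNA of 33 interferon-response, 14 MHC class I, 9 complement, 12 macrophage and 12 cell cycle genes than vehicle kidneys, and less of 7 podocyte genes, several transporters and the clock gene Arntl. Between MnDps and Dps at 24 h, edgeR called 3 interferon-list genes and no class I, complement, macrophage, cell cycle or podocyte gene. At an adjusted p under 0.05, 1978 of 14854 genes were called (13.3%), of which 732 were higher (4.93%) and 1246 lower (8.39%). The counts of list members below are to be read beside these shares. Tested against a minimum change of 1.5-fold, 18 genes were called higher and 2 lower. The counts rested on single libraries: 59 higher and 241 lower without library 1 of MnDps at 24 h, 249 and 360 without its library 2, 194 and 585 without vehicle library 3. Without vehicle library 1 the number called higher was 379. Genes whose call held in all 12 other fits, which include the loss of any one of the 5 libraries, numbered 45 of the 732 and 124 of the 1246.

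Direction also followed the base composition of the transcript. Among the 10% of genes richest in A and T, 31.6% were lower and 0.880% higher after MnDps at 24 h. Among the 10% richest in G and C, 0.542% were lower and 10.6% higher. Over 14761 genes the log2 fold change had a Spearman correlation of 0.42 with GC content and -0.34 with transcript length, given here as a description over genes that share libraries. With a correction for both, 410 genes were called higher and 615 lower, of which 283 and 483 had the same call without it. The part of base composition and length in single results was not tested, and the count, median or call with the correction is given for many of the lists and genes below.

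**Figure D1:**
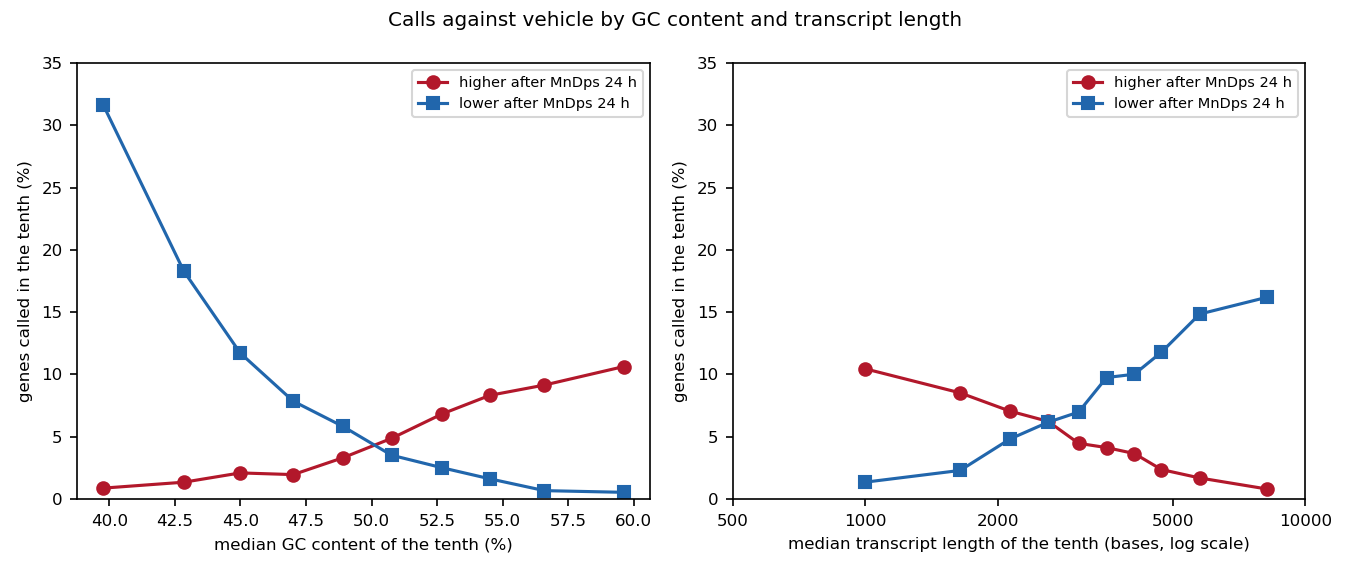
Share of genes called (percent, vertical axis) in 10 equal groups of the tested genes ordered by GC content (left, percent) or transcript length (right, bases, log axis); red, higher after MnDps at 24 h than in vehicle kidneys; blue, lower. The share called lower is 31.6% in the most AT-rich group and 0.542% in the most GC-rich one, and the share called higher runs the other way.

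Genes of the interferon response were higher as a group. By edgeR's quasi-likelihood test, 33 of 66 listed genes were called higher and none lower (1 lower at an unadjusted p under 0.05, and 1 with DESeq2), and 60 had a log2 fold change above 0; the list median was 0.69, beside 0.02 over all genes tested. The number called higher was 10 without library 1 of MnDps at 24 h, 21 without its library 2 and 20 without vehicle library 3. With the length and GC correction the median was 0.67. The summed level of the list was 2320.0 to 2747 CPM after MnDps at 24 h, against 1253 to 1436 CPM in vehicle kidneys.

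Irf7 (chromosome 7, 141263183 to 141266499, GRCm38), the transcription factor that amplifies interferon production, had 241 and 203 CPM after MnDps at 24 h, against 12.5, 19.8 and 14.2 CPM in vehicle kidneys. Both treated libraries stood far above every vehicle library, and Irf7 rose by a log2 fold change of 3.85 ± 0.25 (adjusted p = 1.68e-05). Bst2, which tethers budding virus to the cell membrane, had 133 and 98.0 CPM after MnDps at 24 h, against 15.5, 20.2 and 12.9 CPM in vehicle kidneys. The groups did not overlap, and Bst2 rose by 2.85 ± 0.25 (log2 fold change, adjusted p = 0.000172). Lgals3bp, a secreted glycoprotein that binds galectins, had 263 and 232 CPM after MnDps at 24 h, against 67.2, 59.6 and 56.2 CPM in vehicle kidneys, and rose by 2.02 ± 0.12 (adjusted p = 9.74e-08). Ifi27, an interferon-inducible membrane protein, had 149.7 and 134 CPM after MnDps at 24 h, against 38.7, 38.4 and 31.6 CPM in vehicle kidneys, and rose by 1.97 ± 0.12 (adjusted p = 9.74e-08). Neither Lgals3bp nor Ifi27 overlapped between the groups, and each of these 4 genes kept its call in all 12 other fits.

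The Ifit proteins bind foreign RNA. Ifit1 had 23.4 and 18.1 CPM after MnDps at 24 h, against 4.89, 7.11 and 5.49 CPM in vehicle kidneys. It rose by 1.83 ± 0.18 (log2 fold change, adjusted p = 7.06e-05), with both treated libraries above every vehicle library. Ifit3b had 18.2 and 14.7 CPM after MnDps at 24 h, against 6.48, 7.05 and 6.14 CPM in vehicle kidneys, and rose by 1.33 ± 0.18 (adjusted p = 0.000883). Slfn4, a Schlafen family gene of myeloid cells, was low throughout, with 1.64 CPM in both MnDps 24 h libraries against 0.220, 0.229 and 0.215 CPM in vehicle kidneys, and rose by 2.87 ± 0.37 (adjusted p = 0.000642). Ifi27l2a had 40.3 and 31.0 CPM after MnDps at 24 h, against 3.62, 12.3 and 7.54 CPM in vehicle kidneys (log2 fold change 2.19, adjusted p = 0.00681). Its call was lost without library 1 of MnDps at 24 h (adjusted p = 0.0601) and in the fit of these groups alone (0.0861). Irgm1, a GTPase that acts against intracellular bacteria, had 180.1 and 119 CPM after MnDps at 24 h, against 84.1, 71.1 and 55.7 CPM in vehicle kidneys (1.09 ± 0.20, adjusted p = 0.00562; 0.0829 without library 1 of MnDps at 24 h).

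Other central genes of the pathway, picked out after their values were seen, were not called. Rsad2, an antiviral enzyme, had a log2 fold change of 0.04 (adjusted p = 0.93), and Mx1, an antiviral GTPase, 1.28 (adjusted p = 0.0658).

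**Figure D2:**
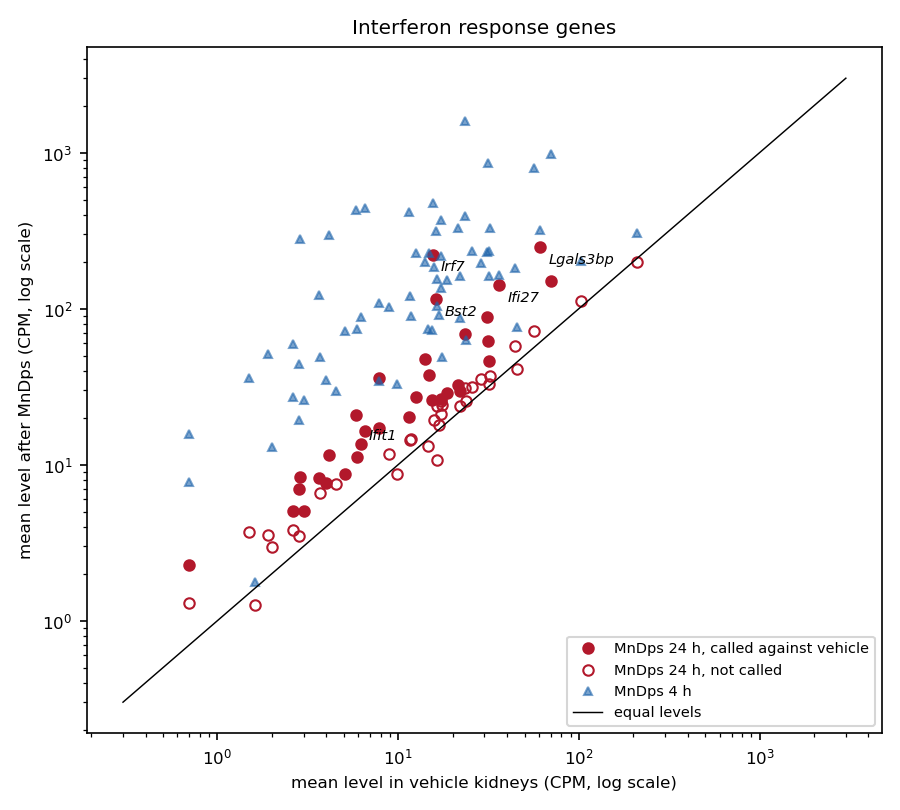
Mean level of each of the 66 interferon-response genes after MnDps (vertical axis, CPM, log scale) against its mean in vehicle kidneys (horizontal axis, CPM, log scale); red circles, MnDps at 24 h, filled where called against vehicle; blue triangles, MnDps at 4 h; line, equal levels. At 24 h, 60 of the 66 genes have a log2 fold change over vehicle above 0, and 33 are called.

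Promoters are shown for Bst2 and Ifit1 because copies of the ISRE core lie in them. The core searched was GAAA, 2 bases of any kind and GAAA again, on both strands, in windows of 250 bases before to 50 after each RefSeq start (GRCm38.p6). It was found in 26 of 51 list members with a window (51.0%), in 12 of 25 called ones, and in 434 of 11222 tested genes with a window (3.87%). The Irf7 and Lgals3bp windows held none. In Bst2 (chr8:71537423-71537722, minus strand) there are overlapping copies that begin 130 and 124 bases before the start. In Ifit1 (chr19:34640639-34640938, plus strand) copies begin 104 and 85 bases before it and are read on the other strand. Capitals mark the motif.
Bst2: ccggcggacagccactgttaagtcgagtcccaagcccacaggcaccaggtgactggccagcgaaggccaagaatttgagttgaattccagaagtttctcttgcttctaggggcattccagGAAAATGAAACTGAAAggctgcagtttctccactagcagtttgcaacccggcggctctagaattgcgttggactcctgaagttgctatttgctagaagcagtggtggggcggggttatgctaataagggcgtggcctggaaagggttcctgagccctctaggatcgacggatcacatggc
Ifit1: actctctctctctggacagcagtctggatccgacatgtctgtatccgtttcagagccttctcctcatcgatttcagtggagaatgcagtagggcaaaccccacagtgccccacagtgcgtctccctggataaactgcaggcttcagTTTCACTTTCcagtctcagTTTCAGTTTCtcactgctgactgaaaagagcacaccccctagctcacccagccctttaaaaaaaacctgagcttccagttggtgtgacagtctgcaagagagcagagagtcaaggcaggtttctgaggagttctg

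Genes of MHC class I presentation, which load peptides for display to T cells, moved with the interferon genes and in part belong to both lists. Of 21 tested, 14 were called higher and 1, the chaperone Canx, lower, with a median log2 fold change of 0.72 (0.56 with the length and GC correction). The Canx call was lost with the correction, without either library of MnDps at 24 h, and without vehicle library 1 or 3. Those higher numbered 3 without library 1 of MnDps at 24 h, 5 without its library 2, 5 without vehicle library 3, and 9 without vehicle library 1. Psmb8, an immunoproteasome subunit, had 53.1 and 41.8 CPM after MnDps at 24 h, against 17.2, 14.2 and 11.1 CPM in vehicle kidneys. It rose by 1.76 ± 0.27 (adjusted p = 0.00294) without overlap and in all 12 other fits. H2-D1, a class I heavy chain, had 283 and 245 CPM after MnDps at 24 h, against 136, 94.4 and 90.5 CPM in vehicle kidneys (1.31 ± 0.23, adjusted p = 0.00531; 0.0601 without library 1 of MnDps at 24 h). H2-K1, another heavy chain, had 804 and 681 CPM after MnDps at 24 h, against 436, 223 and 208 CPM in vehicle kidneys (1.36 ± 0.31, adjusted p = 0.0201). Vehicle library 1 was the highest of its group for both heavy chains. The H2-K1 call was lost without library 1 (adjusted p = 0.131) or 2 (0.0640) of MnDps at 24 h, without vehicle library 3 (0.0659), with the length and GC correction (0.0552), and in the fit of these groups alone (0.153). Of 13 genes of MHC class II presentation, 1 was called higher (Lgmn, a lysosomal protease, log2 fold change 0.24) and none lower, also at an unadjusted p under 0.05 and with DESeq2. With DESeq2 4 were called higher, and with the length and GC correction 0. Without vehicle library 1, 5 were called higher, without vehicle library 2, 2, and without any one of the other 3 libraries, 0.

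Of 25 complement genes tested, 9 were called higher and 1 lower, with a median of 0.61 (5 higher and a median of 0.46 with the correction); without library 1 of MnDps at 24 h, 4 were called higher, and 5 without its library 2. C4b, a component of the classical and lectin pathways, had 28.2 and 37.3 CPM after MnDps at 24 h, against 10.05, 6.02 and 5.03 CPM in vehicle kidneys, and rose by 2.26 ± 0.32 (adjusted p = 0.00224). C2, which pairs with C4 in the same convertase, had 118 and 85.6 CPM after MnDps at 24 h, against 55.7, 50.5 and 48.3 CPM in vehicle kidneys, and rose by 0.98 ± 0.14 (adjusted p = 0.000914). Both were free of overlap and kept their calls in all 12 other fits. C3, the central component, had 97.8 and 60.6 CPM after MnDps at 24 h, against 16.1, 22.6 and 18.1 CPM in vehicle kidneys. Its rise of 2.06 ± 0.33 (adjusted p = 0.00451) stood just above the threshold without library 1 of MnDps at 24 h (adjusted p = 0.0503).

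Acute-phase genes are made by the liver and the injured kidney in inflammation. Of 24 tested, 4 were called higher by edgeR (7 with DESeq2) and none lower, also at an unadjusted p under 0.05 and with DESeq2. A log2 fold change above 0 was seen in 21, with a median of 0.65 (0.50 with the correction), and the summed level was 246 to 329 CPM after MnDps at 24 h, against 158 to 175 CPM in vehicle kidneys. Without vehicle library 3, 2 were called higher, and 1 without library 1 of MnDps at 24 h. Serpina3n, a protease inhibitor, had 2.65 and 3.07 CPM after MnDps at 24 h, against 0.439, 0.344 and 0.0807 CPM in vehicle kidneys (3.55 ± 0.72, adjusted p = 0.00914). The call was lost without library 1 (adjusted p = 0.0532) or 2 (0.0629) of MnDps at 24 h, without vehicle library 3 (0.0533), and with limma voom (0.0678). Saa3, an acute-phase lipoprotein, rested on 25 counts after MnDps at 24 h and 2 in vehicle kidneys, a depth-adjusted ratio of 22.6 with an exact 95% counting interval of 5.63 to 197. Its adjusted p was 0.00734, and 0.108 without library 2 of MnDps at 24 h. Itih4, a plasma protein of the inter-alpha-trypsin inhibitor family, had 17 counts after MnDps at 24 h and 3 in vehicle kidneys, a ratio of 10.2 (2.96 to 54.6, adjusted p = 0.0323). Its call was lost without library 1 of MnDps at 24 h (0.718), vehicle library 1 (0.0670) or vehicle library 3 (0.139), with the length and GC correction (0.0533), and with limma voom (0.116).

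Of 24 chemokine genes, 2 were called higher by edgeR (4 with DESeq2) and none lower, also at an unadjusted p under 0.05 and with DESeq2; 21 had a log2 fold change above 0. Ccl5, which attracts T cells and monocytes, had 9.77 and 7.94 CPM after MnDps at 24 h, against 2.25, 0.745 and 0.807 CPM in vehicle kidneys, and rose by 2.89 ± 0.48 (adjusted p = 0.00445) in all 12 other fits too. Cxcl13, which attracts B cells, had 1.13 and 0.737 CPM after MnDps at 24 h, against 0.0549, 0.287 and 0.296 CPM in vehicle kidneys (1.96, adjusted p = 0.00771; 0.0884 without library 1 of MnDps at 24 h). Ccl5 was then the one chemokine gene called. Ccl2, the main monocyte attractant, was under 1 CPM in every library of both groups, with 0.694 and 0.532 CPM after MnDps at 24 h and 0.494, 0.344 and 0.431 CPM in vehicle kidneys (0.49, adjusted p = 0.554). Over all genes tested, 4.93% were called higher and 8.39% lower. Of 37 targets of the transcription factor NF-kB, 3 were called higher and none lower (1 lower at an unadjusted p under 0.05, none with DESeq2). Without library 2 of MnDps at 24 h, 1 was called. Traf1, an adaptor of the TNF receptor family, had 5.17 and 6.06 CPM after MnDps at 24 h, against 2.36, 2.47 and 2.58 CPM in vehicle kidneys (1.18, adjusted p = 0.00344, kept in all 12 other fits).

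**Figure D3:**
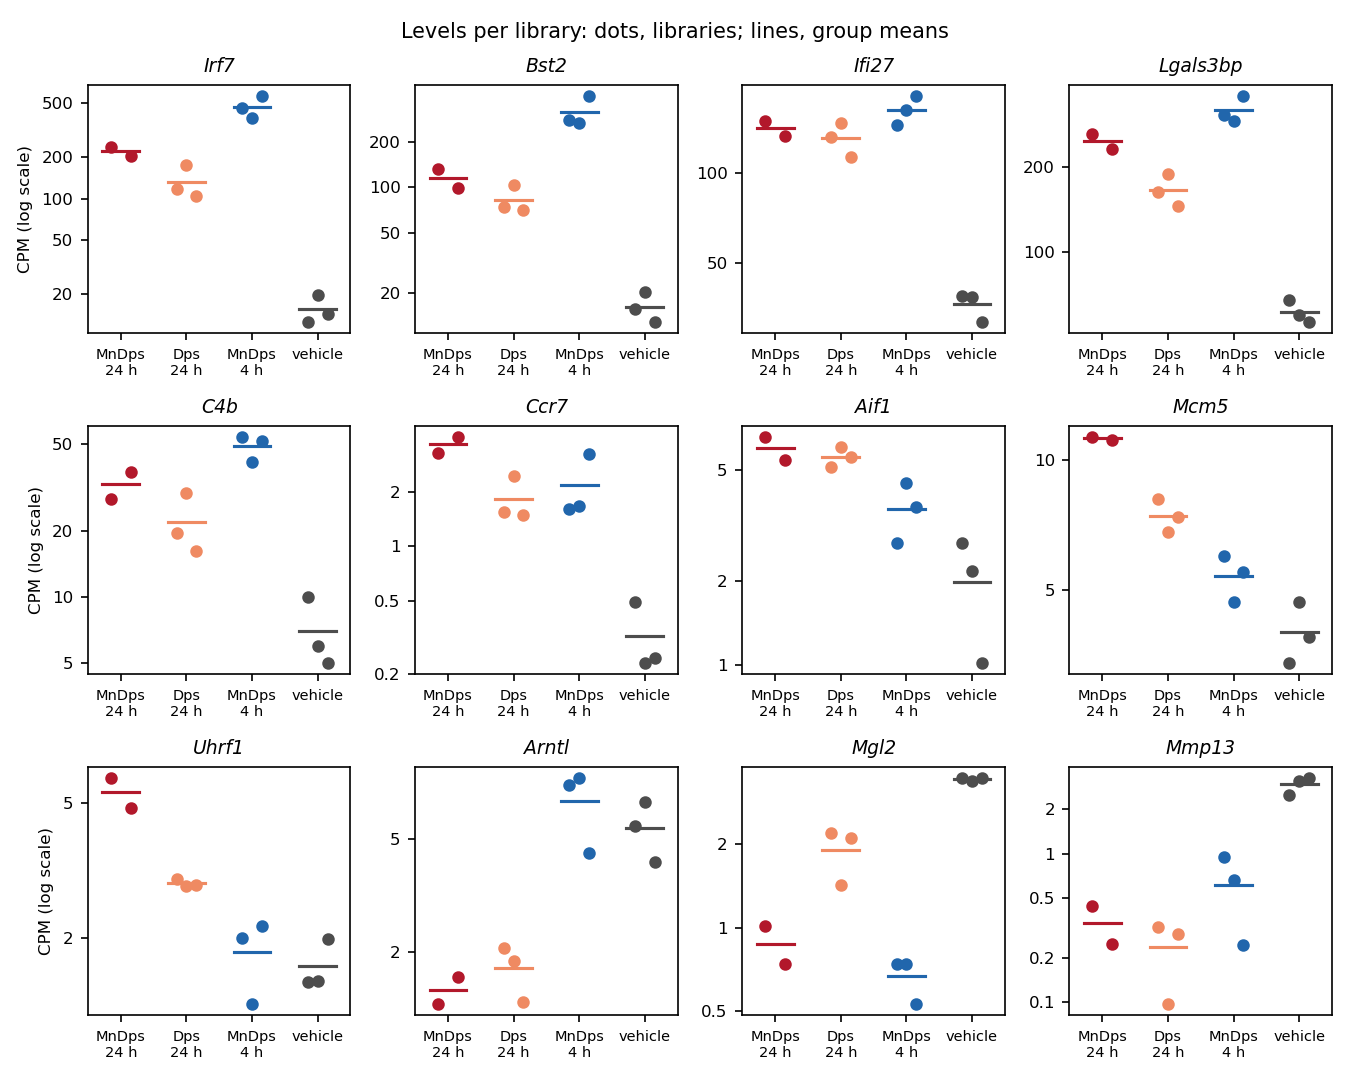
Level of 12 genes in each library (dots, CPM, log scale) with the group mean (line), in the 4 groups named on the axis. In the MnDps 24 h libraries Irf7, Bst2, Ifi27, Lgals3bp, C4b, Ccr7, Aif1, Mcm5 and Uhrf1 lie above every vehicle library, and Arntl, Mgl2 and Mmp13 below.

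Markers of macrophages were higher in part. Of 30 tested, 12 were called higher and none lower (1 lower at an unadjusted p under 0.05, none with DESeq2), with a median of 0.75 (7 higher and a median of 0.64 with the correction). Leaving out library 1 of MnDps at 24 h left 5 called, its library 2, 6, and vehicle library 3, 7. The summed level of the list was 467 to 499 CPM after MnDps at 24 h, against 339.7 to 448 CPM in vehicle kidneys. Aif1, a calcium-binding protein of macrophages, had 6.56 and 5.41 CPM after MnDps at 24 h, against 2.74, 2.18 and 1.02 CPM in vehicle kidneys, and rose by 1.66 ± 0.30 (adjusted p = 0.00318). Fcer1g, the signalling chain of Fc receptors, had 15.3 and 13.6 CPM after MnDps at 24 h, against 6.15, 4.47 and 4.36 CPM in vehicle kidneys, and rose by 1.54 ± 0.22 (adjusted p = 0.00108). C1qa, a complement subunit that macrophages make, had 34.7 and 32.6 CPM after MnDps at 24 h, against 20.0, 17.0 and 12.3 CPM in vehicle kidneys, and rose by 1.05 ± 0.17 (adjusted p = 0.00224). All 3 were free of overlap and kept their calls in the 12 other fits. Among defining markers picked out after their values were seen, Adgre1, the F4/80 antigen, had a log2 fold change of 0.88 (adjusted p = 0.0668), and the mannose receptor Mrc1 -0.52 (adjusted p = 0.33). The part of a change in macrophage content in the rises of the complement and interferon genes was not tested.

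Dendritic cell markers moved in both directions. Of 16 tested, 5 were called higher and 1 lower, and the median was -0.03. Bst2, described above as an interferon gene, is also on this list and is 1 of the 5. Leaving out library 1 or library 2 of MnDps at 24 h left 3 called higher. Ccr7, the receptor that guides mature dendritic cells to lymph nodes, had 3.28 and 4.01 CPM after MnDps at 24 h, against 0.494, 0.229 and 0.242 CPM in vehicle kidneys, and rose by 3.56 ± 0.44 (adjusted p = 0.000508). Mgl2, a lectin of dendritic cells and macrophages, had 1.01 and 0.737 CPM after MnDps at 24 h, against 3.46, 3.38 and 3.47 CPM in vehicle kidneys, and fell by 2.00 on the log2 scale (SE 0.29, adjusted p = 0.00129). Neither gene overlapped between the groups, and both calls held in all 12 other fits. Itgax, the CD11c integrin, had 8.76 and 8.03 CPM after MnDps at 24 h, against 4.78, 3.67 and 2.96 CPM in vehicle kidneys (1.16, adjusted p = 0.00502; 0.0560 without library 1 of MnDps at 24 h). Cd209a, a lectin of dendritic cells, had 0.315 and 0.860 CPM after MnDps at 24 h, against 1.43, 0.803 and 2.07 CPM in vehicle kidneys, with overlapping groups (-1.25, adjusted p = 0.114; 0.0490 without vehicle library 2).

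Of 19 T and NK cell markers, 1 was called, and of 8 neutrophil and 9 B cell and plasma cell markers none in either direction by edgeR. At an unadjusted p under 0.05, 1 neutrophil and 1 B cell marker were higher and none lower, and DESeq2 called 1 neutrophil marker higher and none of the B cell list. Of the 8 neutrophil markers, 7 had a log2 fold change above 0, with a median of 0.59 (0.49 with the correction). Their summed level was 8.11 to 12.8 CPM after MnDps at 24 h, against 4.49 to 6.70 CPM in vehicle kidneys. Lcn2, described below with the injury genes, is on that list. The T and NK marker was Gzma, a granzyme, with 1.45 and 0.573 CPM after MnDps at 24 h, against 0.384, 0.115 and 0.0269 CPM in vehicle kidneys (2.70, adjusted p = 0.0249). Its call was lost without library 1 of MnDps at 24 h (adjusted p = 0.243) or vehicle library 3 (0.122), and in the fit of these groups alone (0.0504). S100a8, the calgranulin of neutrophils, had 2 counts in all over the MnDps 24 h libraries and 2 over the vehicle libraries, a ratio of 1.81 with an exact 95% counting interval of 0.131 to 24.9. A difference was not detectable at this depth.

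Among the largest rises, 2 further genes of low level did not overlap between the groups and kept their calls in all 12 other fits. Apol7c, an apolipoprotein L gene, had 1.95 and 2.05 CPM after MnDps at 24 h, against 0.110, 0.172 and 0.296 CPM in vehicle kidneys (3.19 ± 0.41, adjusted p = 0.000642). Apod, a lipid-binding lipocalin, had 2.58 and 3.69 CPM after MnDps at 24 h, against 0.220, 0.917 and 0.296 CPM in vehicle kidneys (2.85 ± 0.46, adjusted p = 0.00214).

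Of 48 genes of the cell cycle tested, 12 were called higher and 1 lower, 44 had a log2 fold change above 0, and the median was 0.40 (0.39 with the correction). Those higher were 3 without library 1 of MnDps at 24 h, and 6 without vehicle library 3. Mcm5 and Mcm3 are subunits of the helicase that licenses replication origins. Mcm5 had 11.3 and 11.1 CPM after MnDps at 24 h, against 3.40, 4.70 and 3.90 CPM in vehicle kidneys, and rose by 1.49 ± 0.16 (adjusted p = 0.000177). Mcm3 had 10.4 and 8.23 CPM after MnDps at 24 h, against 3.18, 2.92 and 3.88 CPM in vehicle kidneys, and rose by 1.46 ± 0.19 (adjusted p = 0.000642). Uhrf1, which carries DNA methylation over to the new strand, had 5.93 and 4.83 CPM after MnDps at 24 h, against 1.48, 1.49 and 1.99 CPM in vehicle kidneys, and rose by 1.66 ± 0.23 (adjusted p = 0.000883). These are the 3 genes of the list whose call held in all 12 other fits, and their groups did not overlap.

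Ccne1, the cyclin that starts S phase, had 1.45 and 1.11 CPM after MnDps at 24 h, against 0.329, 0.401 and 0.296 CPM in vehicle kidneys (1.90 ± 0.38, adjusted p = 0.00582; 0.0653 without library 1 of MnDps at 24 h). Markers of proliferation and replication picked out after their values were seen did not all share the direction. Mki67, a general marker of cycling cells, had 8.95 and 3.97 CPM after MnDps at 24 h, against 4.61, 5.68 and 4.23 CPM in vehicle kidneys, with overlapping groups (0.40, adjusted p = 0.358). Pcna, the sliding clamp of the replication fork, had a log2 fold change of 0.06 (adjusted p = 0.733), and Mcm7 0.13 (adjusted p = 0.371). Ect2, needed for cytokinesis, was the member called lower (-1.12, adjusted p = 0.0151); its call was lost without either library of MnDps at 24 h and with the length and GC correction.

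The promoter of Mcm5 (chr8:75109259-75109558, plus strand, RefSeq, GRCm38.p6) is shown because it holds a site of the E2F factors that drive replication genes. The letters searched were TTTCCCGC or TTTGGCGC on both strands, found in 6 of 38 list members with a window (15.8%), in 4 of 10 called higher, and in 352 of 11222 tested genes with a window (3.14%). The Mcm3 window held 2 copies, and neither Uhrf1 window held any. The copy in Mcm5 begins 149 bases before the start and is read on the other strand; capitals mark it.
Mcm5: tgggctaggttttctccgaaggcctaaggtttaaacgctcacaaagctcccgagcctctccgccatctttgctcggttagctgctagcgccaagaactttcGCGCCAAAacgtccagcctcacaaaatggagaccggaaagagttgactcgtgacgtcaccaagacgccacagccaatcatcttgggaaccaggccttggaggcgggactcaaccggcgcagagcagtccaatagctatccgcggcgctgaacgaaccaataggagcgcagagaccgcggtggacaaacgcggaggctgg

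Clock genes moved in both directions. Of 16 core clock genes, 4 were called higher and 4 lower; without library 1 of MnDps at 24 h, 1 was called higher, and 2 without its library 2 or vehicle library 3. Arntl (BMAL1), the activator of the clock, had 1.32 and 1.64 CPM after MnDps at 24 h, against 5.54, 6.71 and 4.14 CPM in vehicle kidneys. It fell by 1.84 on the log2 scale (SE 0.32, adjusted p = 0.00279) with no overlap, and its log2 fold change with the correction was -1.79. Clock, its partner, had 34.2 and 28.5 CPM after MnDps at 24 h, against 52.4, 51.9 and 52.3 CPM in vehicle kidneys, and fell by 0.74 on the log2 scale (SE 0.11, adjusted p = 0.0013). With 40.9% GC, its log2 fold change was -0.38 with the correction. Dbp, a transcription factor that Arntl and Clock drive, had 244 and 248 CPM after MnDps at 24 h, against 109.8, 104 and 137 CPM in vehicle kidneys, and rose by 1.07 ± 0.12 (adjusted p = 0.000305; 0.79 with the correction). All 3 calls held in the 12 other fits.

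Repressors of the clock were not uniform. Cry1 had 6.49 and 5.45 CPM after MnDps at 24 h, against 2.42, 3.67 and 2.66 CPM in vehicle kidneys (1.04, adjusted p = 0.0206). The call was lost without library 1 (adjusted p = 0.148) or 2 (0.0643) of MnDps at 24 h and without vehicle library 1 (0.0681) or 3 (0.0831). Cry2, named after its values were seen, had 40.9 and 43.0 CPM after MnDps at 24 h, against 26.5, 26.1 and 27.3 CPM in vehicle kidneys (0.65 ± 0.08, adjusted p = 0.000389, kept in all 12 other fits). Per1, a fast-responding period gene, had 78.9 and 48.2 CPM after MnDps at 24 h, against 66.6, 33.1 and 57.2 CPM in vehicle kidneys, and the groups overlapped (0.27, adjusted p = 0.708). Clock genes follow the hour of the day, the hour of collection is not given and the vehicle group has no time point, so treatment and hour cannot be told apart in these values.

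An Arntl promoter (chr7:113207261-113207560, plus strand, RefSeq, GRCm38.p6) is shown because it holds a RORE, the element that ROR activators and REV-ERB repressors share. The RORE was found on either strand in 1 of 12 core clock genes with a window (8.33%), against 26 of 11222 tested genes with a window (0.232%). It begins at base 27 after the start; capitals mark it.
Arntl: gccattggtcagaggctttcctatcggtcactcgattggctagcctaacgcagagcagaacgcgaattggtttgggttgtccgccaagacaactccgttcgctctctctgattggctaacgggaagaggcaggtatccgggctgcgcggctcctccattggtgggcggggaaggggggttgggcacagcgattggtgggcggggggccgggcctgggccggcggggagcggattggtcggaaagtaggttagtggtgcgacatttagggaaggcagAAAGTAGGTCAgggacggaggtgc

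**Figure D4:**
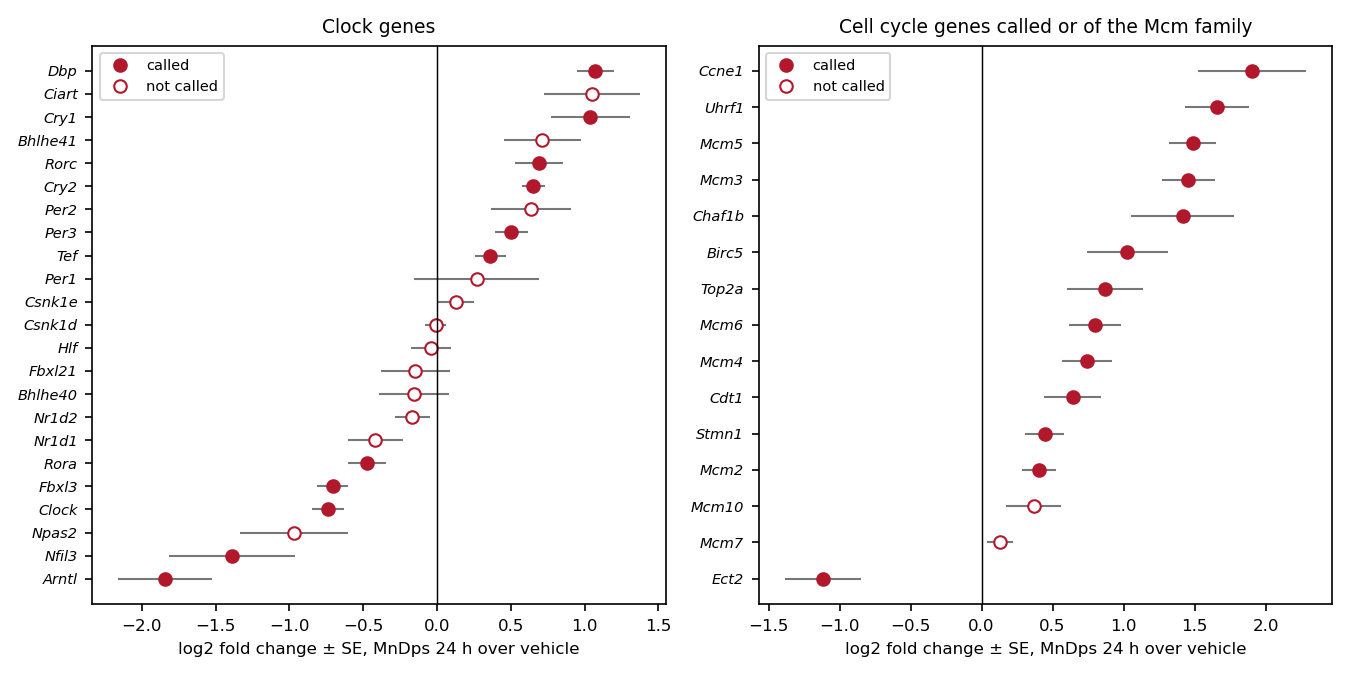
Log2 fold change of MnDps at 24 h over vehicle (horizontal axis, with SE as bars) for clock genes (left) and for cell cycle genes that were called or belong to the Mcm family (right); filled points, called. Arntl lies lowest among the clock genes at -1.84 and Dbp highest at 1.07; in the right panel Ect2 is the member below 0.

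Over all genes tested, edgeR called 4.93% higher and 8.39% lower. Of 31 tubule injury genes tested, 2 were called higher and 2 lower by edgeR, and 6 higher and 2 lower with DESeq2. At an unadjusted p under 0.05, 11 were higher and 2 lower, and 25 had a log2 fold change above 0, with a median of 0.35. None was called without library 1 of MnDps at 24 h, 4 were higher and 1 lower without its library 2, 6 higher and 2 lower without vehicle library 2, and 1 higher and 1 lower without vehicle library 3. Havcr1 (KIM-1), an early sign of proximal tubule injury, had 5.74 and 1.64 CPM after MnDps at 24 h, against 1.26, 2.29 and 1.56 CPM in vehicle kidneys. Library 1 of MnDps at 24 h was high and library 2 lay within the vehicle range, and the log2 fold change was 1.07 ± 0.40 (adjusted p = 0.0921, and 0.0357 with DESeq2). It was -0.04 without library 1, and 1.76 (adjusted p = 0.0108) without library 2. Lcn2 (NGAL), another injury marker, had 9.71 and 5.32 CPM after MnDps at 24 h, against 3.84, 4.47 and 2.40 CPM in vehicle kidneys, above without overlap but not called (1.10 ± 0.69, adjusted p = 0.317). Vim, an intermediate filament of dedifferentiated tubule cells and of mesenchyme, had 64.4 and 54.5 CPM after MnDps at 24 h, against 34.7, 40.8 and 35.1 CPM in vehicle kidneys (0.69, adjusted p = 0.00812; 0.107 without library 1 of MnDps at 24 h). Itgb6, an epithelial integrin, had 72.5 and 76.2 CPM after MnDps at 24 h, against 119.6, 154 and 142 CPM in vehicle kidneys (-0.90, adjusted p = 0.00502; 0.0636 without library 1).

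The receptors of protein uptake were not called against vehicle by edgeR. Lrp2 (megalin) had 2138 and 2237 CPM after MnDps at 24 h, against 2439, 2474 and 2739 CPM in vehicle kidneys, below without overlap but not called (-0.22 ± 0.09, adjusted p = 0.108). Lrp2 was called lower with limma voom (adjusted p = 0.0474), and its log2 fold change was -0.07 with the length and GC correction. Cubn (cubilin) had 567 and 553 CPM after MnDps at 24 h, against 504, 462 and 535 CPM in vehicle kidneys, above without overlap and not called (0.16 ± 0.09, adjusted p = 0.249). With the length and GC correction Cubn was called, at 0.37 (adjusted p = 0.00838). Of 29 genes of the uptake machinery, 3 were called higher and 6 lower. Those higher and lower were 0 and 2 without library 1 of MnDps at 24 h, without its library 2, 0 and 1, without vehicle library 1, 0 and 5, and without vehicle library 3, 0 and 4. Tmem27 (collectrin), a brush-border partner of amino acid transporters, had 1255 and 1121 CPM after MnDps at 24 h, against 1986, 1747 and 1628 CPM in vehicle kidneys. It fell by 0.59 on the log2 scale (SE 0.09, adjusted p = 0.00177) in all 12 other fits too. The early endosome genes Eea1, a tether, and Rab5a, a GTPase, were also lower. Eea1 had 42.6 and 41.3 CPM after MnDps at 24 h, against 76.2, 64.0 and 77.8 CPM in vehicle kidneys (-0.79, adjusted p = 0.00609; 0.0578 without library 1 or library 2 of MnDps at 24 h). Rab5a had 44.4 and 42.5 CPM after MnDps at 24 h, against 68.4, 59.2 and 64.4 CPM in vehicle kidneys (-0.56, adjusted p = 0.00451; 0.0515 without library 2 of MnDps at 24 h).

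Most markers of the proximal tubule were not called. Over all genes tested, 4.93% were higher and 8.39% lower. Of 56 proximal tubule markers, 2 were higher and 8 lower, with a median of -0.18. The numbers were 0 and 2 without library 1 of MnDps at 24 h, without its library 2, 2 and 5, without vehicle library 1, 1 and 6, and without vehicle library 3, 1 and 4. Slc5a8, a sodium-coupled carrier of lactate and other monocarboxylates, had 198 CPM in both MnDps 24 h libraries, against 355, 355 and 379.6 CPM in vehicle kidneys, and fell by 0.87 on the log2 scale (SE 0.12, adjusted p = 0.00105). Slc7a13, an amino acid transporter of the late proximal tubule, had 679.6 and 727 CPM after MnDps at 24 h, against 1008, 1097 and 1264 CPM in vehicle kidneys, and fell by 0.68 (SE 0.11, adjusted p = 0.00183). Both kept their calls in all 12 other fits and did not overlap. Slco1a1, an organic anion transporter, had 109.6 and 164 CPM after MnDps at 24 h, against 329, 316 and 379 CPM in vehicle kidneys (-1.32 ± 0.38, adjusted p = 0.0454). That call was lost when any one of the 5 libraries was left out, with no filter on low counts (adjusted p = 0.0682), and with the length and GC correction (-0.98, adjusted p = 0.163). Leaving out one library gave an adjusted p of 0.0530 (without vehicle library 2) to 0.263 (without library 1 of MnDps at 24 h). Slc34a1, the sodium-phosphate transporter of the brush border, had 5025 and 6499 CPM after MnDps at 24 h, against 6282, 6690.5 and 6672 CPM in vehicle kidneys, with overlap (-0.18, adjusted p = 0.226).

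Further along the nephron, called markers of the thick ascending limb were mostly lower and those of collecting duct principal cells higher. In the thick ascending limb, 1 of 14 was called higher and 4 lower (0 and 4 with the length and GC correction). No marker was called without library 1 of MnDps at 24 h, and without its library 2 none was higher and 3 were lower. Umod, the most abundant urinary protein, had 1781 and 2106 CPM after MnDps at 24 h, against 2618, 2903 and 3547 CPM in vehicle kidneys (-0.64 ± 0.14, adjusted p = 0.00867; 0.113 without library 1). Egf had 683 and 944 CPM after MnDps at 24 h, against 1537, 1447 and 1780.2 CPM in vehicle kidneys (-0.96 ± 0.19, adjusted p = 0.00759; 0.0897 without library 1). In principal cells of the collecting duct, 4 of 15 were called higher and none lower (1 lower at an unadjusted p under 0.05, and 1 with DESeq2), with a median of 0.32. With the length and GC correction, 2 were called and the median was 0.14. The number higher was 0 without library 1 of MnDps at 24 h, 1 without its library 2, and 2 without vehicle library 1 or 3. Aqp2, the vasopressin-regulated water channel, had 479 and 356 CPM after MnDps at 24 h, against 141, 232 and 133 CPM in vehicle kidneys (1.31 ± 0.25, adjusted p = 0.008; 0.0887 without library 1, and 0.0776 in the fit of these groups alone). Of 16 intercalated cell markers of the same duct, 4 were called higher and 1 lower, with a median of 0.17 (1 and 1, and 0.09, with the correction). Those higher and lower were 0 and 0 without library 1 of MnDps at 24 h, 4 and 0 without its library 2, 1 and 0 without vehicle library 1, 4 and 0 without vehicle library 2, and 2 and 1 without vehicle library 3. The one lower was Car2, a carbonic anhydrase (-0.30, adjusted p = 0.0439). No segment list was tested against another.

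Podocyte genes, which build the filter, were lower where called. Of 20 tested, 7 were called lower and none higher (3 higher at an unadjusted p under 0.05, 2 with DESeq2), with a median of -0.26 (-0.32 with the correction). Leaving out library 1 of MnDps at 24 h left 2 lower. Dach1, a transcription factor of podocytes, had 9.96 and 9.38 CPM after MnDps at 24 h, against 25.6, 20.5 and 22.6 CPM in vehicle kidneys. It fell by 1.24 on the log2 scale (SE 0.23, adjusted p = 0.00386), with no overlap and in all 12 other fits. Wt1, a transcription factor that podocytes need, had 4.22 and 6.02 CPM after MnDps at 24 h, against 10.05, 9.69 and 10.5 CPM in vehicle kidneys (-0.96 ± 0.17, adjusted p = 0.00296; 0.0551 without library 1). The summed level of the podocyte list was 987 to 1147 CPM after MnDps at 24 h, against 1273 to 1417 CPM in vehicle kidneys.

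Markers of tissue around the kidney also stood above vehicle in part. Of 14 urothelium markers, 13 had a log2 fold change above 0, with a median of 0.74 (0.58 with the correction), and the summed level was 96.5 to 97.1 CPM after MnDps at 24 h, against 36.1 to 84.6 CPM in vehicle kidneys. Upk3b, a uroplakin, was the one called higher (1.29, adjusted p = 0.021), and none was lower, also at an unadjusted p under 0.05 and with DESeq2. None was called without either library of MnDps at 24 h or without vehicle library 3, and 8 were called higher without vehicle library 2. Of 18 adipocyte markers none was called by edgeR or DESeq2 (3 higher and none lower at an unadjusted p under 0.05), 15 had a log2 fold change above 0, and the median was 0.59 (0.48 with the correction). Their summed level overlapped, at 383 to 652 CPM after MnDps at 24 h, against 413 to 582 CPM in vehicle kidneys. The part of such tissue in the collecting duct, podocyte and inflammatory results was not tested.

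**Figure D5:**
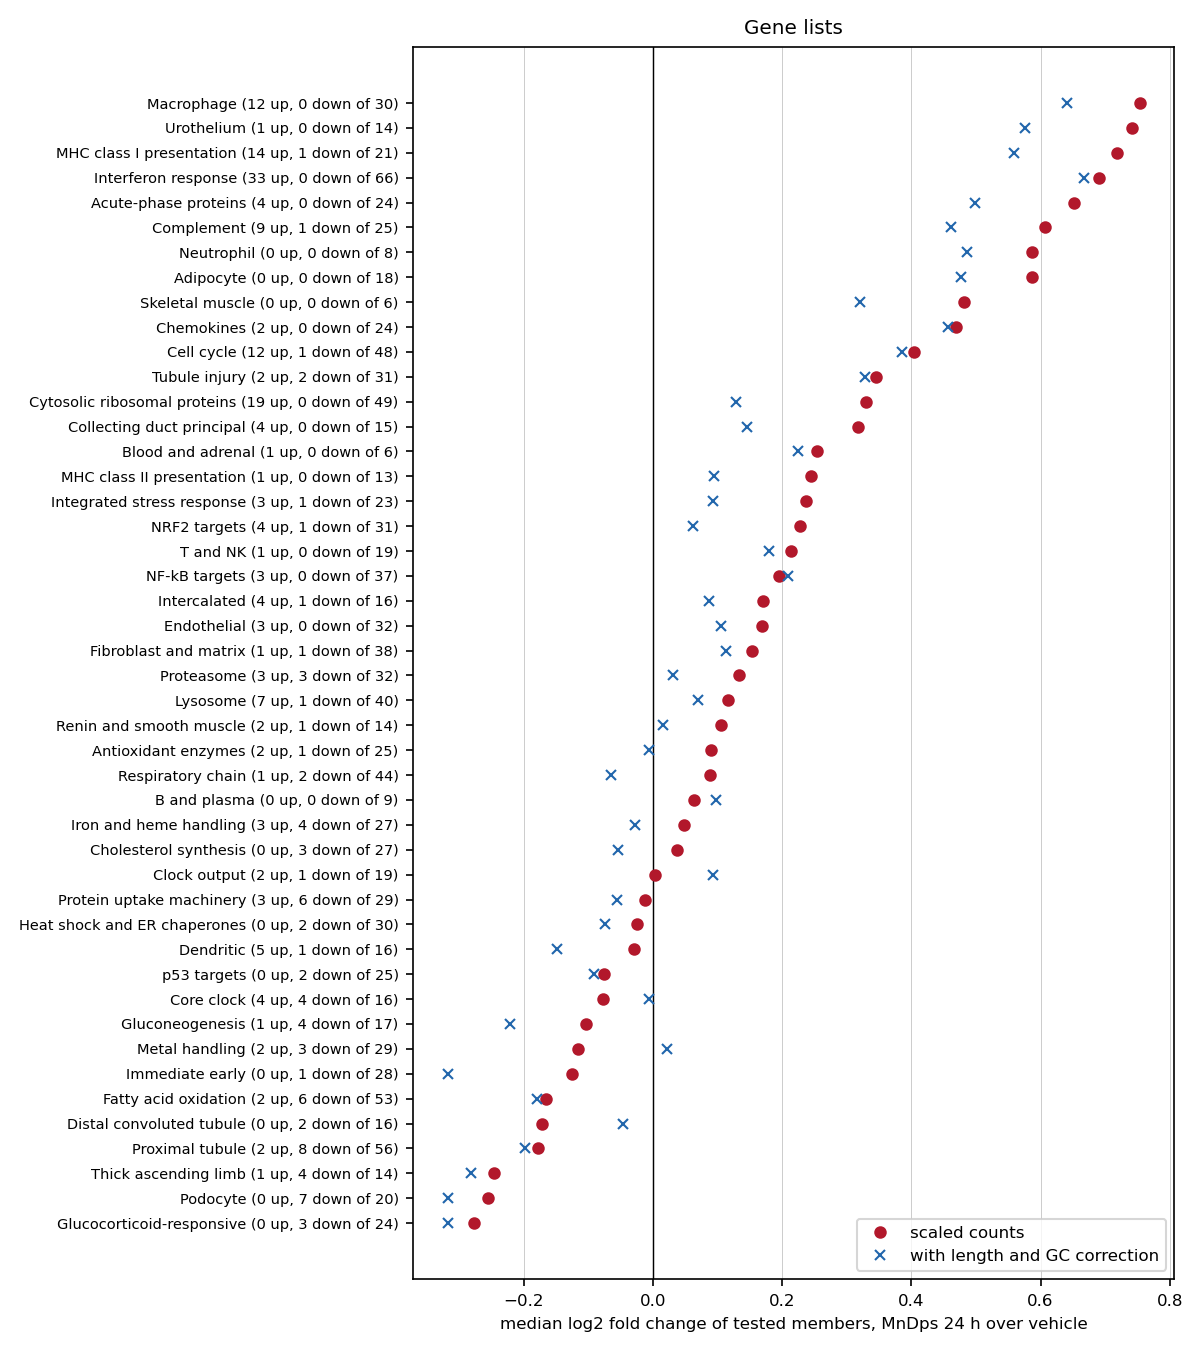
Median log2 fold change of MnDps at 24 h over vehicle (horizontal axis) for the tested members of each of 46 gene lists, from scaled counts (red circles) and with the length and GC correction (blue crosses); the labels give how many members were called higher and lower. The macrophage (0.75), urothelium (0.74), MHC class I (0.72) and interferon (0.69) lists lie near the top and the podocyte list (-0.26) near the bottom; the ribosomal protein list moves to 0.13 with the correction.

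Of 29 genes of metal handling, 2 were called higher and 3 lower, beside 4.93% and 8.39% over all genes tested, with a median of -0.12 (1 higher, 1 lower and a median of 0.02 with the correction). Without library 1 of MnDps at 24 h none was called, and leaving out its library 2, vehicle library 1 or vehicle library 3 left 1 called lower and at most 1 higher. The metallothioneins, which bind zinc and other metals and are induced by them, were not called. Mt1 had 135 and 84.9 CPM after MnDps at 24 h, against 70.6, 76.5 and 65.4 CPM in vehicle kidneys (0.63 ± 0.28, adjusted p = 0.154). Mt2 had 51.3 and 35.3 CPM after MnDps at 24 h, against 24.0, 24.1 and 33.9 CPM in vehicle kidneys (0.64, adjusted p = 0.294). Slc30a1, a zinc exporter, had 60.7 and 74.2 CPM after MnDps at 24 h, against 98.8, 89.9 and 102 CPM in vehicle kidneys (-0.52 ± 0.11, adjusted p = 0.00703; 0.114 without library 1). Of the manganese carriers picked out after their values were seen, Slc39a14 had a log2 fold change of 0.03 and Slc39a8 of -0.26, neither called.

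Among 25 antioxidant enzymes, 2 were called higher and 1 lower, beside 4.93% and 8.39% over all genes tested. None was called without library 1 of MnDps at 24 h or without vehicle library 3, and without library 2 of MnDps at 24 h 1 was higher and none lower. Sod2, the manganese superoxide dismutase of mitochondria, had 347 and 337 CPM after MnDps at 24 h, against 361, 349 and 319.6 CPM in vehicle kidneys. Its groups overlapped and its log2 fold change was -0.01 ± 0.08 (adjusted p = 0.966). Hmox1, the inducible heme oxygenase, had 44.7 and 39.6 CPM after MnDps at 24 h, against 26.6, 57.2 and 45.2 CPM in vehicle kidneys, within the spread of that group (-0.03, adjusted p = 0.951). Gpx1, the cytosolic glutathione peroxidase, had 2748 and 2426 CPM after MnDps at 24 h, against 1821, 2145 and 1718 CPM in vehicle kidneys (0.45, adjusted p = 0.0115). Its transcript has 57.2% GC, and with the correction its log2 fold change was 0.17 (adjusted p = 0.18). The call was also lost without library 1 of MnDps at 24 h (adjusted p = 0.147) or vehicle library 3 (0.0558).

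Of 17 genes of gluconeogenesis, 4 were called lower and 1 higher (Sik1, a kinase that restrains the pathway in mouse liver, 0.34), with a median of -0.10 (2 lower, none higher and a median of -0.22 with the correction). Those lower numbered 0 without library 1 of MnDps at 24 h, 1 without its library 2, and 2 without vehicle library 1 or 3. Sik1 was called higher without vehicle library 3 but not without any one of the other 4 libraries. Pck1, the cytosolic enzyme that commits to glucose synthesis, had 1539.7 and 1977 CPM after MnDps at 24 h, against 4402, 3070.2 and 3023 CPM in vehicle kidneys (-0.99 ± 0.26, adjusted p = 0.0274). Its call was lost without library 1 (adjusted p = 0.199) or 2 (0.0738) of MnDps at 24 h or vehicle library 1 (0.0641). G6pc, the glucose-6-phosphatase, had 345 and 411 CPM after MnDps at 24 h, against 853, 692 and 746 CPM in vehicle kidneys (-1.01 ± 0.21, adjusted p = 0.0113; 0.115 without library 1 of MnDps at 24 h). Pck2, the mitochondrial counterpart of Pck1, was called higher (0.27, adjusted p = 0.0471), and leaving out any one of the 5 libraries ended that call, with an adjusted p of 0.0564 (without vehicle library 2) to 0.224 (without library 1 of MnDps at 24 h). Klf9, a transcription factor that glucocorticoids induce, had 73.1 and 68.7 CPM after MnDps at 24 h, against 149, 126 and 169.9 CPM in vehicle kidneys. It fell by 1.07 on the log2 scale (SE 0.16, adjusted p = 0.00175) without overlap and in all 12 other fits. Of 24 glucocorticoid-responsive genes, 3 were called lower and none higher, also at an unadjusted p under 0.05 and with DESeq2. Without library 1 of MnDps at 24 h, 1 was lower, and also 1 without its library 2.

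Genes of cytosolic ribosomal proteins depended on the length and GC correction. Of 49 tested, 19 were called higher and none lower, also at an unadjusted p under 0.05 and with DESeq2, with a median of 0.33. With the correction the median was 0.13 and 4 were called. None was called without library 1 of MnDps at 24 h or without vehicle library 3, 2 without library 2 of MnDps at 24 h, and 1 without vehicle library 1.

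Among the largest falls, the metalloprotease Mmp13 had 0.441 and 0.246 CPM after MnDps at 24 h, against 2.47, 3.10 and 3.23 CPM in vehicle kidneys. It fell by 3.15 on the log2 scale (SE 0.51, adjusted p = 0.00185). Lypla1, an acyl-protein thioesterase, had 164 and 177 CPM after MnDps at 24 h, against 437, 396 and 449.7 CPM in vehicle kidneys, and fell by 1.33 (SE 0.19, adjusted p = 0.00144; -1.02 with the correction). The noncoding Gt(ROSA)26Sor had 5.04 and 4.05 CPM after MnDps at 24 h, against 13.0, 11.0 and 12.3 CPM in vehicle kidneys, and fell by 1.43 (SE 0.22, adjusted p = 0.00163). In each of the 3 genes both treated libraries lay below every vehicle library, and the calls held in all 12 other fits. Slc16a14, an orphan monocarboxylate transporter, had 4.60 and 14.3 CPM after MnDps at 24 h, against 34.0, 34.3 and 37.9 CPM in vehicle kidneys (-1.86 ± 0.35, adjusted p = 0.00832). Its treated libraries lay far apart from each other, but both below vehicle. The log2 fold change was -1.32 without library 1 of MnDps at 24 h and -2.95 without its library 2, and the call was lost in the fit of these groups alone (adjusted p = 0.107).

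MnDps was also compared with Dps at the same time and dose, which does not use the vehicle libraries. At 24 h, 121 of 14854 genes were called (0.815%), 22 higher (0.148%) and 99 lower (0.666%) after MnDps than after Dps. With the length and GC correction 21 were higher and 115 lower, and 70 of the 121 genes were called there too. The count depended on the method: 166 higher and 400 lower with DESeq2, and 231 and 496 from the libraries of these groups alone. Leaving out any one of the 5 libraries brought it to between 5 (without library 1 of MnDps at 24 h) and 45 (without library 1 of Dps at 24 h). Without library 2 of MnDps at 24 h it was 22, and 16 and 15 without libraries 2 and 3 of Dps at 24 h.

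Most interferon genes had a positive log2 fold change between MnDps and Dps at 24 h. Of 66, 63 were above 0, with a median of 0.41 beside 0.00 over all genes, and edgeR called 3 higher, beside 0.148% over all genes. At an unadjusted p under 0.05, 23 were higher, and DESeq2 called 12 higher. None was lower by edgeR, at an unadjusted p under 0.05 or with DESeq2. Irf7 had 241 and 203 CPM after MnDps, against 118, 175 and 104 CPM after Dps at 24 h, without overlap and not called (0.74 ± 0.23, adjusted p = 0.15). Irgm1 had 180.1 and 119 CPM after MnDps, against 63.3, 87.1 and 68.9 CPM after Dps at 24 h, and was called higher (1.03 ± 0.20, adjusted p = 0.0395), in 6 of 12 other fits. Its adjusted p was 0.219 without library 1 of MnDps at 24 h, and 0.0933, 0.0606 and 0.139 without Dps 24 h libraries 1, 2 and 3. Lgals3bp had 263 and 232 CPM after MnDps, against 163, 188 and 145 CPM after Dps at 24 h (0.58, adjusted p = 0.0368, kept in 7 of 12). Leaving out any one of the 5 libraries ended that call, with an adjusted p of 0.0556 (without library 2 of Dps at 24 h) to 0.215 (without library 1 of MnDps at 24 h). No gene of MHC class I presentation or the cell cycle was called between the proteins by edgeR. At an unadjusted p under 0.05, 6 class I genes were higher and 3 lower, and 18 of 48 cell cycle genes were higher and none lower, and DESeq2 called 1 cell cycle gene higher and no class I gene. Complement, macrophage and podocyte genes had medians of 0.04, 0.02 and 0.01 between the proteins, and edgeR called none of 25, 30 and 20. Those higher and lower at an unadjusted p under 0.05 were 2 and 3, 0 and 1, and 0 and 4. DESeq2 called 1 complement gene higher and 1 lower. The summed levels of these lists overlapped between the proteins.

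Genes of the respiratory chain were on the other side of 0. Of 44 between MnDps and Dps at 24 h, 0 had a log2 fold change above 0, with a median of -0.21. None was called by edgeR in either direction; at an unadjusted p under 0.05, 22 were lower and none higher, and DESeq2 called 8 lower and none higher. Their summed level was 20464 to 20825 CPM after MnDps, against 22558 to 24450.0 CPM after Dps at 24 h, and 19301 to 21460.0 CPM in vehicle kidneys. Other lists lay on the same side: 1 of 49 cytosolic ribosomal protein, 1 of 30 chaperone and 4 of 32 proteasome genes were above 0. Over 14761 genes the log2 fold change between the proteins had a Spearman correlation of 0.21 with transcript length and 0.21 with GC content. The part of either in the respiratory chain values was not tested.

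Among single genes, Gt(ROSA)26Sor had 5.04 and 4.05 CPM after MnDps, against 15.9, 18.3 and 20.3 CPM after Dps at 24 h, and was lower by 2.01 on the log2 scale (SE 0.22, adjusted p = 0.00135), the one of these to hold in all 12 other fits. Cyp4a12b, a fatty acid hydroxylase, had 53.3 and 31.1 CPM after MnDps, against 14.9, 20.9 and 13.6 CPM after Dps at 24 h (1.35, adjusted p = 0.0293, kept in 8 of 12; 0.161 without library 1 of MnDps at 24 h, and 0.0739 and 0.109 without libraries 1 and 3 of Dps). Tmem27 had 1255 and 1121 CPM after MnDps, against 1738, 1822 and 1833 CPM after Dps at 24 h (-0.60, adjusted p = 0.0117, kept in 8 of 12). Its adjusted p was 0.0525 and 0.132 without libraries 1 and 2 of MnDps at 24 h, and 0.0509 and 0.0514 without libraries 2 and 3 of Dps. Cubn had 567 and 553 CPM after MnDps, against 443, 409 and 414 CPM after Dps at 24 h (0.41, adjusted p = 0.0491, kept in 5 of 12), and leaving out any one of the 5 libraries ended that call, with an adjusted p of 0.0803 (without library 1 of Dps) to 0.210 (without library 2 of MnDps at 24 h). In each of these genes the libraries of the 2 proteins did not overlap, which was a condition for naming the largest rises and falls.

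Between 24 h and 4 h of MnDps, 3242 of 14854 genes were called (21.8%), 1502 higher (10.1%) and 1740 lower (11.7%) at 24 h. Without library 1 of MnDps at 24 h these were 780 and 1057, and without its library 2, 621 and 715. The interferon list was far lower at the later time: 63 of 66 genes were called lower and none higher, also at an unadjusted p under 0.05 and with DESeq2, with a median of -2.69 beside -0.01 over all genes. Irf7 had 241 and 203 CPM at 24 h, against 463, 389 and 567 CPM at 4 h (-1.09, adjusted p = 0.00774; 0.0866 without library 2 of MnDps at 24 h). Oasl1, an interferon-induced regulator of Irf7 translation in mouse, had 8.20 and 8.44 CPM at 24 h, against 273, 248 and 315 CPM at 4 h (-5.06). Ifit3b had 18.2 and 14.7 CPM at 24 h, against 455, 388 and 478 CPM at 4 h (-4.75). The Oasl1 and Ifit3b calls held in all 12 other fits, and no library at 24 h reached the range at 4 h.

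Other lists differed between the times as well. MHC class I genes were lower at 24 h in 14 of 21 and higher in none, chemokines lower in 16 of 24 and higher in 2, and tubule injury genes lower in 17 of 31 and higher in none. The counts of none were also 0 at an unadjusted p under 0.05 and with DESeq2. Cxcl10, an interferon-induced chemokine, had 6.94 and 5.57 CPM at 24 h, against 195, 117 and 206 CPM at 4 h (-4.80). S100a8 had 2 counts over the libraries at 24 h and 239 over those at 4 h, a depth-adjusted ratio of 0.0144 with an exact 95% counting interval of 0.00174 to 0.0527. Cell cycle genes ran the other way, with 11 of 48 higher at 24 h and none lower (2 lower at an unadjusted p under 0.05, none with DESeq2), and a median of 0.50. Uhrf1 was higher at 24 h than at 4 h by 1.57 and Mcm5 by 1.05, and Arntl was lower by a log2 fold change of -2.17, each in all 12 other fits. Btnl9, a butyrophilin-like gene of endothelium, had 2.65 and 2.58 CPM at 24 h, against 0.174, 0.350 and 0.0482 CPM at 4 h, and was higher by 3.67. At 24 h its level overlapped that of vehicle kidneys, with 2.42, 2.12 and 3.98 CPM in vehicle.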

How the data were processed

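RNA sequencing of kidneys was analysed from a table of counts per gene symbol, with 1 column per library. STAR as aligner, featureCounts as counter and the mm10 build are named in the submitters' processing notes. Their versions, the annotation, the strand setting and the treatment of multi-mapping reads are not given in the sources used. The values deposited by the authors are raw counts, whole numbers with library totals that differ. No counts in the table belong to symbols that begin with mt-, the prefix of mitochondrially encoded genes. Whether such genes were left out or named otherwise was not checked.

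Libraries were grouped by treatment and time in the labels. The labels give no replicate numbers, so libraries are numbered in the order of the series and are not paired. All 14 libraries entered 1 fit of 5 group means with edgeR 4.0.16 in R 4.3.3 (TMM scaling, filterByExpr by group, robust quasi-likelihood F-test), with Benjamini-Hochberg adjustment over all 14854 genes tested and calls at an adjusted p under 0.05. The standard error was the log2 fold change divided by the square root of F. The common biological coefficient of variation was 10.7%, with 9 residual degrees of freedom, and no pair of replicates was as close as counting noise allows (chi-square 7.74 to 29.3 per degree of freedom). Depth sets the precision of low genes, for which exact 95% counting intervals of the ratio of summed counts are given; these cover counting error only.

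The alternatives were DESeq2 size factors, no filter on low counts, a stricter filter (at least 1 CPM in 3 libraries), DESeq2 1.42.0, limma 3.58.1 (voom with library weights), a fit of the compared groups alone, a minimum change of 1.5-fold, a spline correction for transcript length and GC content, and each library left out in turn. A call described as kept in all 12 other fits held in all of these but the 1.5-fold minimum. The step was tested on simulated counts of the MnDps 24 h and vehicle comparison over 14854 genes: of 50 genes changed by each fold, 6 were recovered at 1.25-fold, 28 at 1.5-fold, 41 at 2-fold and 50 at 4-fold, with 1 false call. The changed genes were drawn from those with a mean of at least 1 CPM over the groups, so recovery below that level was not tested. Unchanged genes had the same mean in every group, and no trend with GC content or transcript length was put in. The number of false calls therefore does not carry over to the real comparison.

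Genes are named by a rule: the 15 largest called rises and falls with at least 1 CPM and no overlap, up to 5 called members of each of 46 lists, a short list named whatever its result, and the 5 largest rises and falls of the other comparisons. Others are said in the text to have been picked after their values were seen, and include overlap partners and single members named in a count. The comparison, the lists and the rule were chosen with earlier results of these data known. Gene lengths, GC content and positions are from GENCODE M21 and RefSeq (GRCm38). Promoter sequences are RefSeq's. A few genes that the rule names, or that a count includes, are not reported here.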

Additional observations from a re-analysis of the deposited data

Results flagged for a closer look

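For 15 named genes the level at 24 h of MnDps differed from that at 4 h by a test of the difference between the times (edgeR, adjusted p under 0.05). Values are log2 fold changes of 24 h over 4 h. Inflammatory and interferon genes were lower at 24 h: the value was -5.98 for S100a8, -4.37 for Ifit1, -3.80 for Ccl2, -3.47 for Saa3, -3.36 for Lcn2, -1.45 for Bst2 and -1.09 for Irf7. It was -1.70 for Mt2, -1.20 for Hmox1, -2.17 for Arntl and -0.45 for Kap. Cd209a was higher by 4.21, on 26 counts at 24 h and 2 at 4 h, a ratio of 22.4 with an exact 95% counting interval of 5.62 to 195. Dbp was higher by 0.995, Cubn by 0.52 and Lrp2 by 0.27. The difference was lost without library 2 of MnDps at 24 h for Irf7 (adjusted p = 0.0866), Hmox1 (0.0883), Mt2 (0.123), Lcn2 (0.0618), Lrp2 (0.210) and Cd209a (0.134). It was lost without library 1 for Kap (0.140) and Lrp2 (0.0984), and for Lrp2 without library 3 of MnDps at 4 h (0.105). In the fit of these groups alone the difference was lost for Kap (adjusted p = 0.0712), Mt2 (0.0722) and Lrp2 (0.117), and Cd209a was not tested. For Lrp2 it was also lost with no filter on low counts (0.0560). With the length and GC correction the log2 fold change was -0.06 for Lrp2 and -0.10 for Kap.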

How the results depend on the processing

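No paired analysis was possible because the labels give no replicate numbers. Against vehicle, genes called higher and lower numbered 410 and 615 with the length and GC correction and 18 and 2 at a minimum of 1.5-fold, and 484 were higher in the fit of the compared groups alone; leaving out one library gave 59 to 976 higher and 241 to 1586 lower. Against Dps at 24 h, the numbers higher and lower were 166 and 400 with DESeq2, 204 and 512 with limma voom, 231 and 496 in the fit of the compared groups alone, and 0 and 2 at a minimum of 1.5-fold, with 0 to 13 higher and 5 to 43 lower when one library was left out. At that minimum no gene was higher than after Dps at 24 h by edgeR, against 22 without it. Against MnDps at 4 h they were 939 and 939 in the fit of the compared groups alone and 144 and 313 at a minimum of 1.5-fold, with 621 to 1487 higher and 715 to 1689 lower when one library was left out. Size factors and the filters on low counts kept every one of these counts within 1.5 times. Where a library of MnDps at 24 h was left out, the lone library of that group was assumed to vary like the other groups. Of 2521 values of named genes against vehicle under other settings, 1848 kept their direction and side of the threshold, 641 lost a call, 13 gained one and 19 turned in sign, all of these in genes that were not called. Kap turned to -0.011 with no filter and -0.0087 in the fit of the compared groups alone, Hmox1 to 0.0050 and Sod2 to 0.011 with limma voom, and Sod2 to 0.26 with the length and GC correction. With one library left out, the log2 fold change ran from -0.11 to 0.096 for Kap, -0.29 to 0.20 for Hmox1, -0.056 to 0.023 for Sod2, -0.044 to 1.76 for Havcr1, -0.13 to 0.59 for Per1, -2.69 to 3.39 for S100a8, -0.72 to 0.18 for Astn1, -0.34 to 0.20 for Btnl9 and -3.54 to 0 for Olfr56. Apart from the fits that used fewer samples or genes, the cause of these shifts was not tested. The 2 libraries of MnDps at 24 h, at 15097093 and 23591909 counts, limit what can be called.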
